A study of Mus musculus with 8 samples.

Results

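Members of the large transcription factor families were examined in newborn mouse epidermis with and without the insulin and IGF-1 receptors. They were taken from the authors' deposited comparison table as every gene with a single symbol that begins with Zfp, Fox, Sox, Hox, Klf, Gata, Tbx, Irx, Dlx, Lhx, Msx, Pou, Ets, Runx, Tcf or Nfi, or with Nr and a digit, leaving out Foxo1 and Sox2. This gave 69 genes with 99 probe sets, of 1396 genes named in that table and 45032 probe sets tested on the array. The Zfp group held 47 genes, and the other 22 genes came from the Klf (5), Fox (3), Nfi (3), Sox (3), Hox (2), Runx (2), Gata, Tbx, Tcf and Nr families, the last 4 with 1 gene each. No named gene began with Irx, Dlx, Lhx, Msx, Pou or Ets. Tcfap2e, the only symbol with the Tcf prefix, is an AP-2 factor now called Tfap2e and no TCF protein.

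The members were selected on the same contrast that is described below. In the authors' deposited table each probe set has a fold of at least 1.5 between genotypes and an unadjusted p-value of at most 0.0499. How those values were computed is not stated, and on the deposited signals used here 85 of the 99 member probe sets, and the brightest probe set of 58 of the 69 genes, reached a fold of 1.5. The member closest to that bound in the authors' deposited table was Zfp111, with a ratio of 0.666, and probe sets beyond it have no gene name here. Differences between genotypes are therefore given as a description, the calls of a fit over the whole array included, and no test of the members is made. A family member that is not listed was not shown to be unchanged.

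The 8 arrays came from C57Bl/6 mice. Of these, 4 were from dKO epidermis (IR-/-, IGF-1R-/-), in which both receptor genes are deleted, and 4 from wild-type epidermis, and all samples were newborn epidermis freed of dermis. The labels call the samples of a group biological replicates, and name neither the promoter behind the deletion nor whether animals were pooled. Total RNA was hybridised to Affymetrix Mouse 430 2.0 arrays, where a gene is represented by at least 1 probe set, as a rule close to the end of its transcript. Signals are in linear array units, and a level can be compared between arrays for a probe set but not between probe sets.

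Both targeted transcripts were lower on arrays labelled dKO. Insr averaged 72.8 ± 16.1 units there, against 253.6 ± 63.8 in wild type, and the brightest Igf1r probe set 340.6 ± 27.7 against 582.4 ± 105.8 (SD, n = 4 each). Of 12 keratinocyte markers 2 were named, both well above 0 on each array but in opposite directions. Krt15, a basal layer keratin, averaged 3591 ± 903 units in dKO against 11326 ± 2247, and Krt77 5914 ± 2568 against 1179 ± 354 (SD, n = 4 each). The median signal was 40.7 to 47.4 units on dKO arrays and 46.3 to 51.7 on controls. The Actb control probe sets at the 3 prime and 5 prime ends differed by log2 values of 0.372 to 0.586 in dKO and 0.512 to 0.767 in controls, and those of Gapdh by -0.479 to -0.43 and -0.546 to -0.27. Of the remaining cell type lists, 1 of 9 melanocyte, 1 of 5 muscle, 2 of 5 erythroid and 1 of 4 Schwann cell markers were named, all higher in dKO, 4 of 6 Merkel cell markers were named, all lower, and no endothelial marker was named. Every marker named here or below had been selected by the authors on this contrast, and markers without a name were not analysed. The part of these markers in the differences given below was not tested.

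Transcription factors bind short DNA sequences and switch nearby genes on or off, and related factors share a DNA-binding fold. In skin, p63, Klf, Gata, Sox, Fox and Nfi factors are known to set the course between stratified epidermis, hair follicle and sebaceous gland. Zfp genes encode C2H2 zinc finger proteins. Many of these carry a KRAB domain that recruits the corepressor Trim28 (KAP1), are best known for silencing transposable elements, and lie in clusters of related genes. Insulin and IGF-1 reach transcription in part through kinases that keep FoxO factors out of the nucleus.

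The listed members of the families differed in direction. Of the 47 Zfp genes 46 were lower in dKO, the 5 Klf genes and Nr4a1 were higher, and the 3 Nfi genes were lower. Outside the Zfp group 9 genes were higher and 13 lower. Over all 69 genes, each read by its brightest probe set, 59 (85.5%) were lower and the median log2 difference, dKO minus control, was -0.72. Among the 1327 named genes that were no members 55.3% were lower with a median of -0.57, and among all 45032 probe sets 56.2% were lower with a median of -0.07.

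In a limma fit over all probe sets with Benjamini-Hochberg adjustment, 4 member genes were called higher and 21 lower at an adjusted p under 0.05. Over all probe sets 0.993% were called higher and 1.25% lower, and because the members had been selected on this contrast nothing is read from the members' counts. The 4 called higher were Klf10, Klf13, Klf7 and Klf9, and those called lower were Foxn1, Nfic and 19 Zfp genes. All 4 dKO arrays lay above all 4 controls in 5 member genes and below them in 41, against 3.44% and 5.93% of all probe sets. Without limma's intensity trend 0 member genes were called higher and 1 lower (9 and 55 at an unadjusted p under 0.05), and with the replicate number as a block 2 and 13. Centring each array on its median turned the split of member calls to 6 higher and 10 lower, and that of all calls to 607 and 322. Calls to the lower side numbered 10 without dKO replicate 2, 12 without dKO replicate 3, and 6, 7 and 11 without control replicates 1, 2 and 3. Calls to the higher side numbered 2 without dKO replicate 2 and 1 without dKO replicate 3 or control replicate 1, 2 or 3. Calls over all probe sets fell in the same fits. In the same order, lower calls went from 565 to 297, 253, 158, 217 and 271. Higher calls went from 447 to 211, 185, 195, 214 and 258. With any 1 array left out 10 genes were higher and 59 lower, but the members had been selected for a difference on these same arrays. Their directions were therefore largely fixed in advance, and nothing is read from this count.

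**Figure D1:**
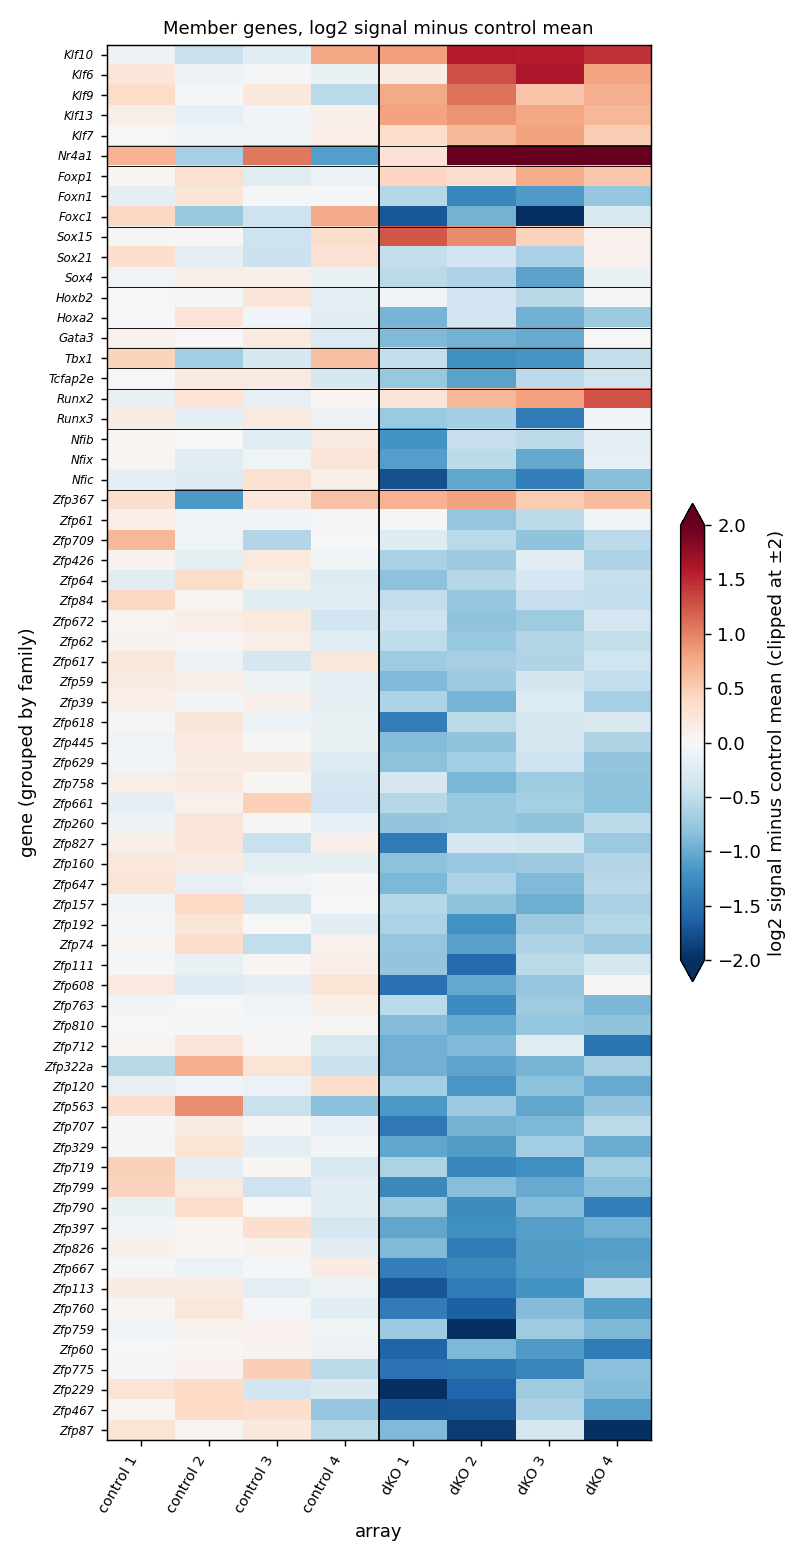
Heat map of the 69 member genes (rows, grouped by family and sorted by difference within each) over the 8 arrays (columns), each cell the log2 signal of the brightest probe set minus that gene's control mean, clipped at 2 in either direction. The Klf rows at the top are red on dKO arrays, and the Zfp rows are blue there except Zfp367 and, on dKO replicate 4, Zfp608.

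For the 46 lower Zfp genes the fold between genotypes ran from 1.28 (Zfp61) to 2.83 (Zfp87) with a median of 1.76. In 37 of the 46 all dKO arrays lay below all controls, as in 5.93% of all probe sets. Among the 1327 named genes that were no members this was so for 513. All named genes had been selected on this contrast, and nothing is read from these counts. Control means were under 100 units for 9 of the 46 lower Zfp genes, 100 to 300 for 29 and over 300 for 8. With 32 added to each signal, which shrinks differences of dim probe sets, the 46 log2 differences ran from -1.02 to -0.27 with a median of -0.64.

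The largest log2 differences among Zfp genes were those of Zfp87 at -1.50 (SE 0.47), Zfp467 at -1.29 (SE 0.30) and Zfp229 at -1.29 (SE 0.32). Zfp87 read 50.6, 24.9, 73.4 and 12.7 units in dKO replicates 1 to 4 and 112.2, 96.9, 107.4 and 64.6 in control replicates 1 to 4. The groups overlapped, because dKO replicate 3 lay above control replicate 4, and the dKO arrays differed widely. With 32 added to each signal the difference of Zfp87 was -0.88. Zfp467, known as a regulator of the choice between bone and fat cells, read 60.8, 61.3, 126.3 and 93.3 units in dKO and 205.3, 262.3, 250.6 and 116.1 in controls. Here too control replicate 4 was the lowest control, below dKO replicate 3. This probe set of Zfp467 carries the suffix _s_at, described further on. The other Zfp467 probe sets differed by -1.10 and -0.94, without overlap between the groups. Zfp229 read 29.8, 39.6, 72.8 and 65.1 units in dKO and 144, 155.4, 90.9 and 97.7 in controls, with no overlap.

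Other Zfp genes had narrower spreads. The next genes, Zfp810, Zfp667, Zfp260 and Zfp445, were picked after their values were seen. Zfp810 averaged 133.6 ± 9.29 units in dKO and 242.2 ± 4.35 in controls, and Zfp667 85.4 ± 8.21 and 197.1 ± 16.2 (SD, n = 4 each). Zfp260, known as a regulator of heart development, averaged 634.0 ± 60.8 and 1047 ± 138 units (SD, n = 4 each). Zfp445, which helps to keep imprinted regions methylated in the early embryo, averaged 1215 ± 202 dKO units against 1904 ± 192 control units (SD, n = 4 each). In each of these 4 genes the groups did not overlap.

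Zfp367 was the Zfp gene with the opposite sign, at a log2 difference of 0.66 (SE 0.37). It read 62.1, 67.1, 54.6 and 59.6 units in dKO and 49, 17.4, 44.3 and 57.5 in controls. The groups overlapped, and control replicate 2 was far below the other controls. Without it the difference was 0.28.

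The remaining Zfp genes all had lower means in dKO. Zfp60, Zfp113, Zfp397, Zfp759, Zfp760, Zfp775, Zfp790 and Zfp826 (current symbol Zfp950) had log2 differences from -1.27 (Zfp775) to -1.07 (Zfp790), and Zfp799 averaged 286.1 ± 39.4 units in dKO against 583.6 ± 157.1 (SD, n = 4 each). Zfp74, Zfp111, Zfp120, Zfp192 (current symbol Zkscan8), Zfp322a, Zfp329, Zfp563, Zfp608, Zfp707, Zfp712, Zfp719 and Zfp763 lay between -0.96 (Zfp719) and -0.79 (Zfp192). Zfp39, Zfp59, Zfp61, Zfp62, Zfp64, Zfp84, Zfp157, Zfp160, Zfp426, Zfp617, Zfp618, Zfp629, Zfp647, Zfp661, Zfp672, Zfp709, Zfp758 and Zfp827 were at -0.75 (Zfp157) to -0.36 (Zfp61). Besides Zfp87 and Zfp467, the groups overlapped in Zfp61, Zfp563, Zfp608, Zfp672, Zfp709, Zfp712 and Zfp827.

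Several Zfp genes had more than 1 listed probe set, and these gave the same sign. Only probe sets that passed the authors' selection are listed, so this agreement was largely given in advance. The same holds for the probe sets of the other families below. The 3 probe sets of Zfp260 differed by -0.72 to -0.61 on the log2 scale, the pair for Zfp790 by -1.08 and -1.07, and the pair for Zfp329 by -0.96 and -0.86. The pair for Zfp84 was less alike, at -1.44 and -0.55. Zinc finger genes resemble each other in sequence, and 7 of the 59 Zfp probe sets carry the suffix _s_at or _x_at, by which Affymetrix marks probe sets that can also read other transcripts. Signal of such a probe set cannot be assigned to 1 gene with certainty.

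**Figure D2:**
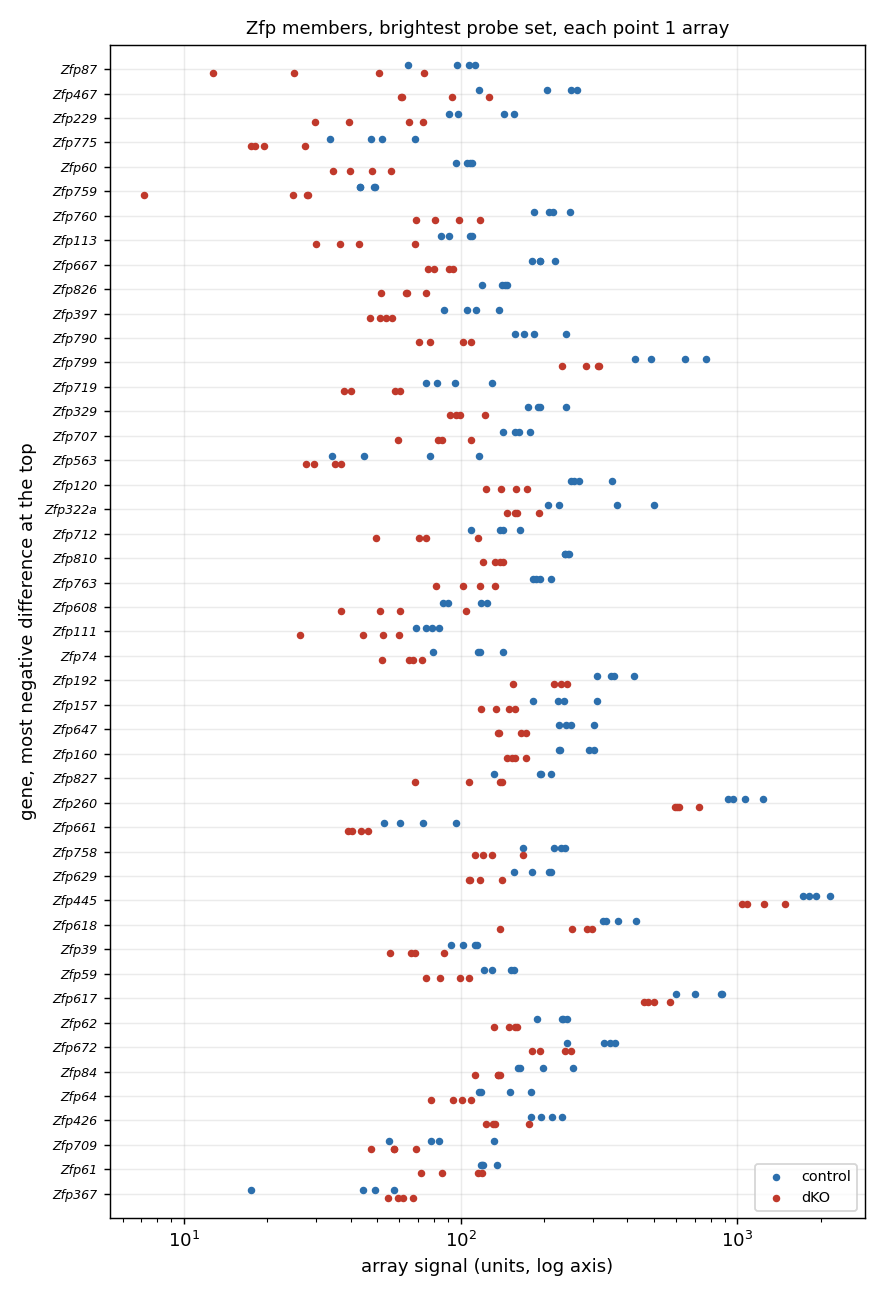
Signals of the 47 Zfp genes (vertical axis, sorted by log2 difference) on a log axis of array units, each point 1 array, blue for the 4 controls and red for the 4 dKO arrays. The red points lie to the left of the blue points without overlap in 37 genes, and Zfp367 at the bottom is the exception in direction. Of all probe sets 5.93% were lower without overlap, and the genes shown had been selected for a difference.

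The Zfp members lay on many chromosomes. In the RefSeq gene table of assembly GRCm38.p6, 25 of the 47 Zfp members (53.2%) lay on chromosomes 7, 13 and 17, as did 177 of 401 Zfp genes (44.1%). Chromosome 7 held 12 members, chromosome 17 held 7 and chromosome 13 held 6, more than any other chromosome. Some members were close neighbours. With 5 or fewer protein-coding genes between them, 10 pairs formed from 17 Zfp members, among them Zfp84, Zfp790, Zfp74 and Zfp260, which follow each other on chromosome 7. No such count was made for all Zfp genes, so it is not known whether the members lie closer together than others.

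In 2 pairs, both on chromosome 17, no protein-coding gene lay between, namely Zfp760 with Zfp229 and Zfp763 with Zfp563. Zfp760 averaged 91.3 ± 21.0 units in dKO and 214.1 ± 27.1 in controls, and its neighbour Zfp229 51.8 ± 20.4 and 122.0 ± 32.4 (SD, n = 4 each). Zfp763 averaged 108.7 ± 22.3 and 193.7 ± 12.7 units, and Zfp563 32.4 ± 4.47 and 68.2 ± 36.9 (SD, n = 4 each). The first 3 did not overlap between genotypes, and Zfp563 did.

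Promoter windows from RefSeq (GRCm38.p6), each 300 bases from 250 before to 50 after a transcript start, were found for 61 member genes with 76 windows. The Zfp760 and Zfp229 windows are shown because these adjacent genes differed by similar amounts, at log2 differences of -1.25 and -1.29. They lie at chr17:21707491-21707790 and chr17:21733474-21733773, both on the plus strand, and capitals mark CG dinucleotides.
Zfp760: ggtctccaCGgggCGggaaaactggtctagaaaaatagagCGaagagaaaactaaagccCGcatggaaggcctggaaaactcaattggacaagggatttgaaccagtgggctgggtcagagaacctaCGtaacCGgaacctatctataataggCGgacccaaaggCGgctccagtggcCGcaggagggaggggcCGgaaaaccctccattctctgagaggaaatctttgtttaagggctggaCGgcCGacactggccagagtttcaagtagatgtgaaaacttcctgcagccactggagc
Zfp229: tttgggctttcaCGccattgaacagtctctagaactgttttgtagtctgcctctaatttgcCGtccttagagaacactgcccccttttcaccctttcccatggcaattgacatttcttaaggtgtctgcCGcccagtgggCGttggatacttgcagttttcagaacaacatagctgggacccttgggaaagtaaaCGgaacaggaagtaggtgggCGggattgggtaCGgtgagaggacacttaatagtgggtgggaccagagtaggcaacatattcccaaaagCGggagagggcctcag

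The Zfp760 window held 12 CG dinucleotides and the Zfp229 window 8. The 48 windows of lower Zfp members held a median of 15.5, close to the 14 of all 408 Zfp windows, while all 32851 windows held a median of 7. Neither neighbour's window held GTAAACA, the core of the forkhead motif bound by FoxO factors, on either strand, and this was so for all 50 Zfp member windows. Of all windows 3.65% and of all Zfp windows 1.47% held it. The AP-1 motif TGANTCA stood in 4 of the 48 windows of lower Zfp members (8.33%), in 3.68% of all Zfp windows and in 7.81% of all windows. The cyclic AMP response element TGACGTCA stood in 1 of the 48 (2.08%, Zfp426) and in the window of Zfp367, against 3.68% of all Zfp windows and 1.79% of all windows. These shares rest on few windows and were not tested.

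The listed Klf genes were all higher in dKO. Klf factors bind GC-rich promoter elements through 3 zinc fingers of a common type and include regulators of the epidermal barrier. Their log2 differences were 1.36 for Klf10 (SE 0.24), 0.96 for Klf6 (SE 0.25), 0.79 for Klf9 (SE 0.18) and for Klf13 (SE 0.10), and 0.58 for Klf7 (SE 0.12).

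Klf10, an early response gene of TGF-beta signalling, read 823.1, 1376.5, 1369.7 and 1243.1 units in dKO replicates 1 to 4 and 427.8, 336.2, 392.6 and 785.8 in control replicates 1 to 4. The groups did not overlap, and the lowest dKO array (replicate 1) was close to the highest control (replicate 4). Klf6, a widely expressed factor induced by injury, read 1006, 2215.1, 2773 and 1567 units in dKO and 1077, 844.7, 896.3 and 831.1 in controls. The dKO arrays numbered 2 to 4 were above all controls, and dKO replicate 1 lay inside the control range. All 4 Klf6 probe sets were lowest in dKO replicate 1 among dKO arrays, and their log2 differences ran from 0.83 to 1.17.

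Klf9, a glucocorticoid and clock regulated factor that slows growth of human keratinocytes, read 780, 970.2, 682.3 and 763.7 units in dKO and 589.6, 452.3, 529.1 and 316 in controls. Every dKO array was above every control. Its 5 probe sets differed by 0.79 to 1.73, the largest of these from a dim probe set. Klf13, known from heart development and T cells, read 1368.4 to 1613.5 units in dKO and 771.6 to 931.6 in controls. Klf7, known from neurons, read 484.4 to 655.1 and 356.2 to 414.7 units. The groups overlapped in neither of these brightest probe sets. The 3 Klf7 probe sets differed by 0.58 to 0.81, and in the dimmest of them the groups overlapped.

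Nr4a1 had the largest log2 difference of the members, at 2.40 (SE 0.64), and also the widest spread in dKO. This orphan nuclear receptor (Nur77) is an immediate early gene, induced within minutes by growth factors, cyclic AMP and stress. It read 288.9, 2801, 2267.8 and 1321.9 units in dKO replicates 1 to 4 and 383.8, 149.6, 488.8 and 110.5 in control replicates 1 to 4. The dKO arrays numbered 2 to 4 were above all controls, and dKO replicate 1 was below 2 of the 4 controls. Without dKO replicate 1 the difference was 3.11. As in Klf6 and Klf10, replicate 1 was the lowest dKO array and replicates 2 and 3 the highest.

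The Nr4a1 and Klf9 promoter windows are shown because Klf9 held the members' single forkhead match and Nr4a1 had the largest difference. The motif marked for Nr4a1 was picked from its own window, which held none of the other 3. They lie at chr15:101266596-101266895 and chr19:23140976-23141275, both on the plus strand, and capitals mark the motifs TGCGTCA (in Nr4a1), GTAAACA and TGANTCA (in Klf9), searched on both strands.
Nr4a1: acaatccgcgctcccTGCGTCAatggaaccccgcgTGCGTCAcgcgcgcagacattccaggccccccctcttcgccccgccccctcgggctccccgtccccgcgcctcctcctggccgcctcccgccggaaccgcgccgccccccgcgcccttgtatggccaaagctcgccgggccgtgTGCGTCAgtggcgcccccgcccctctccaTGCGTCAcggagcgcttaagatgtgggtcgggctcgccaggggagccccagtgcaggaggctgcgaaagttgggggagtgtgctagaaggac
Klf9: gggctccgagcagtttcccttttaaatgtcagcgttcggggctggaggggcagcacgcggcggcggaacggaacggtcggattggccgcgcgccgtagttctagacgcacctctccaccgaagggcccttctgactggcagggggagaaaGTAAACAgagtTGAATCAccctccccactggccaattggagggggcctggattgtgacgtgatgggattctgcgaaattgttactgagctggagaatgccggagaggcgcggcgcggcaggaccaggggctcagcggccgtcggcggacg

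The Nr4a1 window held TGCGTCA, a variant of the cyclic AMP response element, 4 times. Of all windows 2.12% held it at least once. The Klf9 window held 1 GTAAACA, the only match among the 76 member windows, and 1 TGANTCA 4 bases further on. A match describes these letters and is no evidence of binding.

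The listed Nfi genes were all lower in dKO. Nfi factors bind a palindromic element as dimers, and Nfib and Nfix are known to act in hair follicle stem cells. Nfic, known for its role in tooth root formation, read 155.7, 256.3, 205 and 293 units in dKO and 461.8, 443.6, 655.3 and 582.7 in controls. Its log2 difference was -1.26 (SE 0.20) without overlap.

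Nfix read 1315.5, 1965, 1396 and 2535 units in dKO and 2917.3, 2452, 2665.6 and 3393 in controls, a log2 difference of -0.71 (SE 0.19). Nfib read 1055.9, 1760.5, 1691.9 and 2132.9 units in dKO and 2528.5, 2418.6, 2050.1 and 2753 in controls, a difference of -0.59 (SE 0.18). In both, dKO replicate 4 was the highest dKO array and the only one to reach into the control range. The 8 Nfi probe sets had log2 differences from -1.26 to -0.53, and a second Nfib probe set without overlap was at -1.26.

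Several members known from the hair follicle had lower means in dKO, while Foxp1, described further on, had a higher one. Foxn1, the factor missing in nude mice, read 123.4, 74, 83.9 and 107.3 units in dKO and 162.1, 215.5, 180.9 and 178.1 in controls, a log2 difference of -0.94 (SE 0.20) without overlap. Foxc1, which keeps hair follicle stem cells quiescent, read 88.9, 149.6, 70.3 and 229.7 units in dKO and 382.6, 169.9, 215 and 485.2 in controls. Its difference was -1.25 (SE 0.38) with overlap, and its other probe set was at -1.38 without overlap. Among controls, replicates 1 and 4 read high for Foxc1 and replicates 2 and 3 low.

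Tbx1, a T-box factor of hair follicle stem cells and the pharyngeal arches, repeated that order of the controls. It read 203.4, 121.7, 125.4 and 203.7 units in dKO and 387, 174.9, 222.6 and 433.4 in controls, a log2 difference of -0.84 (SE 0.29) with overlap. Gata3, a factor of the inner root sheath and the epidermal barrier, read 824.6, 793.7, 757 and 1510 units in dKO and 1623.6, 1532.2, 1716.2 and 1257.5 in controls. Its difference was -0.71 (SE 0.20), and dKO replicate 4 stood among the controls.

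Sox21, which is needed for a normal hair cuticle, read 582.6, 623.2, 518 and 862.3 units in dKO and 1019, 706.3, 600.7 and 991.8 in controls in its brightest probe set, a log2 difference of -0.35 (SE 0.19) with overlap. Its other probe set differed by -1.01 (SE 0.18), with 256.2 to 403.8 units in dKO and 457.8 to 762.2 in controls and no overlap. The 2 probe sets of Sox21 thus gave differences of unlike size. Sox4, a factor of progenitor cells, read 1044.7, 995, 723.5 and 1390.4 units in dKO and 1442, 1644.2, 1640.8 and 1385.2 in controls, a difference of -0.59 (SE 0.17). Its groups overlapped only through dKO replicate 4.

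Named markers of hair follicle and sebaceous gland also had lower means in dKO. Each had been selected by the authors for a difference on these arrays, so the shared direction is only described. Of 16 hair follicle markers 12 were named, Foxn1 and Gata3 among them, and the other 10 summed to 1556.5 to 4747.3 units on dKO arrays and 5279.6 to 25583.3 on controls. All 6 sebocyte markers were named and summed to 1185.2 to 1666.2 and 2924.3 to 7847.0 units. The largest part of the hair follicle sum was Krt25, with means of 1580.6 units in dKO and 5058.6 in controls. That of the sebocyte sum was Mgst1, with 1056.4 and 2145.6. Probe sets with a 0 on any array had been left out beforehand, and the lowest single signal of these markers was 1 unit. The part of these markers in the differences of Foxn1, Foxc1, Tbx1, Gata3, Sox21 and Sox4 was not tested. In whole epidermis, fewer cells of a type and less RNA per cell cannot be told apart.

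The homeodomain and AP-2 members were lower. Hoxa2, known from the hindbrain and branchial arches, read 63.7, 92.9, 62.5 and 73.5 units in dKO and 121.4, 144.6, 116.5 and 105.2 in controls, a log2 difference of -0.75 (SE 0.21) without overlap. Hoxb2, also of the hindbrain, read 369.9, 292.2, 260.9 and 376.8 units in dKO and 381.1, 370.6, 454.3 and 334.4 in controls. Its difference of -0.25 (SE 0.15) was the smallest of the members, and the groups overlapped. Tcfap2e read 147.8, 119.3, 173.7 and 188.7 units in dKO and 249.4, 282, 282.1 and 194.3 in controls, a difference of -0.68 (SE 0.19) without overlap, with dKO replicate 4 and control replicate 4 close together.

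The other members with higher levels in dKO were Foxp1, Sox15 and Runx2. Foxp1, a forkhead repressor linked to hair follicle stem cell quiescence, read 387.7, 366.2, 481.8 and 425.2 units in dKO and 298, 358.1, 244.9 and 265.4 in controls, a log2 difference of 0.52 (SE 0.15). Its groups did not overlap, by a narrow gap. Sox15, an HMG box factor known from embryonic stem cells and muscle progenitors, read 167.2, 137.1, 98 and 75.5 units in dKO and 72.4, 72.1, 53.2 and 90.8 in controls, a difference of 0.69 (SE 0.28). Here dKO replicate 4 lay among the controls.

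The Runx pair had opposite signs. Runx2, the main regulator of bone formation, read 125.5, 165.7, 183.8 and 249 units in dKO and 94.3, 126.4, 93.8 and 106.9 in controls, a log2 difference of 0.75 (SE 0.22), and dKO replicate 1 was just below the highest control. Runx3, which Langerhans cells and T cells need, read 42.7, 44.5, 26.9 and 68.5 units in dKO and 78.7, 61.8, 80.5 and 65.2 in controls, a difference of -0.72 (SE 0.31). Only dKO replicate 4 overlapped with the controls. Beside Runx3, the 8 named of 12 myeloid and Langerhans cell markers summed to 444.4 to 1740.4 units in dKO and 2302.9 to 3614.7 in controls, and the 3 named of 7 T cell markers to 86.0 to 228.6 and 418.3 to 536.6. Beside Runx2, the 4 named of 11 fibroblast markers summed to 2440.6 to 3991.3 and 1516.3 to 2147.3 units. Most of that sum was Sparc, with means of 2592.7 units in dKO and 1546.4 in controls. Of the 4, 3 were higher in dKO and 1, Fap, was lower, at a log2 difference of -1.39. These markers too had been selected on this contrast. Probe sets with a 0 on any array had been left out beforehand, and the part of these markers in the Runx differences was not tested.

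**Figure D3:**
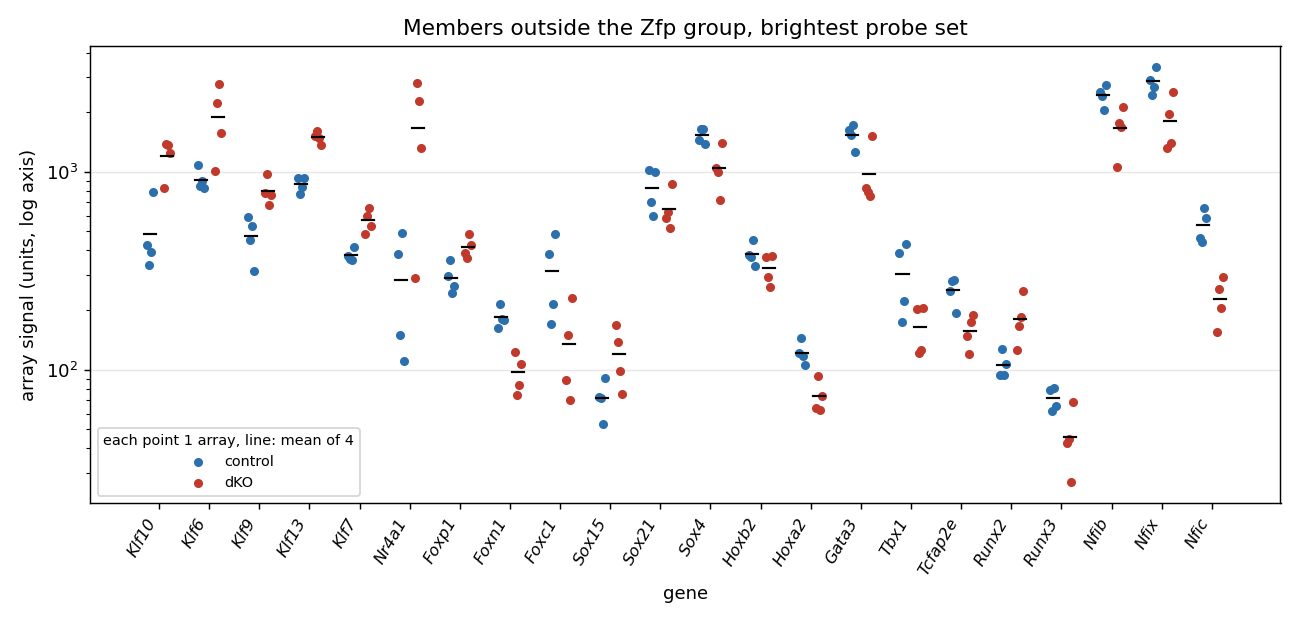
Signals of the 22 members outside the Zfp group (horizontal axis, by family) on a log axis of array units, each point 1 array and each line the mean of 4, blue for controls and red for dKO. The 5 Klf genes and Nr4a1 at the left are higher in dKO on average, with 1 low dKO point in Klf6 and Nr4a1, and the Nfi genes at the right are lower.

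The arrays of a genotype did not shift alike in every family. Measured as the median over family members of log2 signal minus the control mean, the Zfp genes stood at -0.82, -0.91, -0.71 and -0.69 in dKO replicates 1 to 4 and at 0.05, 0.12, 0.00 and -0.18 in control replicates 1 to 4. On each dKO array 45 or 46 of the 47 Zfp genes were below their control mean. The Klf genes stood at 0.76, 1.08, 0.80 and 0.73 in dKO. The Nfi genes spread more, at -1.20, -0.53, -1.02 and -0.18 in dKO, and dKO replicate 4 came within the control range of -0.21 to 0.18.

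Replicate 4 was the dKO array nearest to the controls in 11 of the 13 lower members outside the Zfp group. Among the 46 lower Zfp genes this was so for 17, with 16 for replicate 3, 10 for replicate 1 and 3 for replicate 2. Control replicate 4 was the control nearest to dKO in 25 of these 46. Whether the 2 groups of genes differ in this respect was not tested. With both arrays numbered 4 left out, a choice made after the data were seen, 3 member genes were called higher and 26 lower, and 46 Zfp genes were lower. Calls over all probe sets went from 447 higher and 565 lower to 714 and 811.

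**Figure D4:**
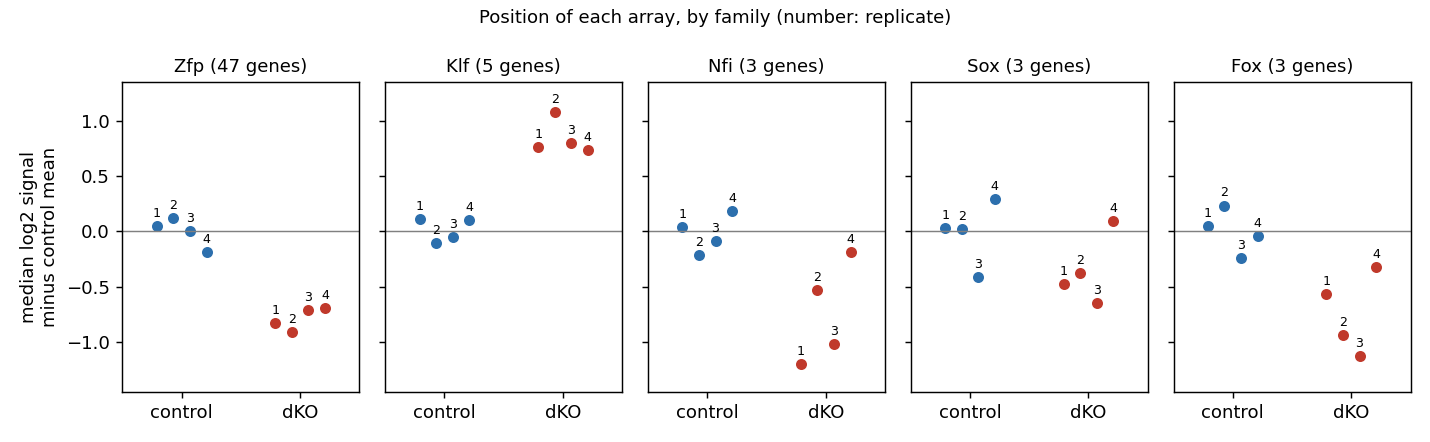
Median over family members of the log2 signal minus the control mean (vertical axis) for each array, numbered by replicate, with controls in blue and dKO in red. The Zfp and Klf panels show separated genotypes, and dKO replicate 4 lies among the controls in the Nfi and Sox panels, as does dKO replicate 2 in the Sox panel.

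Other regulators were found in both directions. Of 70 non-member transcription regulators known from epidermis, Foxo1 and Sox2 included, 19 were named in the authors' table, and 8 of these were called higher and 3 lower, with a median log2 difference of 0.76. They had been selected on this contrast too, and 271 of all 1396 named genes were called higher and 312 lower, against 0.993% and 1.25% of all probe sets. Among those called higher were the AP-1 subunit Fosl1 (3.48, SE 0.48), Myc (1.08, SE 0.14), the Ets factors Etv4 (1.51, SE 0.28) and Etv5 (0.81, SE 0.16) and the barrier factor Grhl3 (0.76, SE 0.15). Ppara (-3.27, SE 0.49), Pparg (-4.02, SE 0.58) and the FoxO factor Foxo1 (-0.88, SE 0.20) were called lower. Junb, Hr and Hopx were the other 3 called higher. Cebpd, Ehf and Elk3 had higher means in dKO and Sox2, Lef1, Hes1, Satb1 and Bnc2 lower ones, without a call. Ppara and Pparg were dim, at 5.1 and 3.0 units in dKO and 48.1 and 47.8 in controls. Trp63, the gene for p63, was not among the named genes and was not analysed here.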

How the data were processed

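Each cell of the deposited value table is a linear signal intensity. Per the submitters' processing notes, MAS5 and Partek belong to the tools, with no role or version stated, and every array had the same 2% trimmed mean of 250. The authors' deposited table gives, per the file headers, the knockout-to-control ratio, an unadjusted p-value and, as a score each, an F statistic and a fold change that carries a sign. Only its symbols were used to find members, and its ratio and p-value columns only to state how its probe sets had been selected. All 69 symbols were found in RefSeq, 3 under another current symbol.

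From the 45101 deposited probe sets, 64 Affymetrix controls were removed, and 5 more because an array read 0. Deposited intensity values were converted to log2, and genotypes were compared by limma 3.58.1 (R 4.3.3; lmFit and eBayes with intensity trend, genotype as the single term, all 8 arrays), and p-values were adjusted by Benjamini-Hochberg over 45032 probe sets. SE is limma's moderated standard error. The number of arrays limits the precision. The fit was tested on simulated data. A gene was read by its probe set with the highest mean log2 signal. Signals of every array are given for up to 3 genes per family and direction with the largest difference, among genes whose higher group mean reached the median signal. The members and lists were chosen with earlier results of these data known. Alternatives were quantile normalization, median centring, an offset of 32, eBayes without trend, robust eBayes, a level filter, the replicate number as a block, the mean over probe sets and leaving out each array. Promoter windows were searched with Python 3.11.15.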

Additional observations from a re-analysis of the deposited data

Results flagged for a closer look

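In 6 of 138 groups of 4 arrays, 1 array of a member gene stood far from the other 3 (its gap to the nearest took up most of the group's range), where chance flags about 1 in 20. Gata3 read 1510 units in dKO replicate 4 and 757 to 824.6 on the other dKO arrays. Zfp260 also stood out in dKO replicate 4, at 724.3 against 593 to 614.1. In dKO replicate 2, Zfp759 read 7.2 against 24.7 to 28 and Zfp84 112.5 against 135.9 to 139.2. Among controls, Zfp120 read 350.9 in replicate 4 against 250.7 to 266.6, and Zfp61 134.9 in replicate 1 against 118.5 to 120.8.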

How the results depend on the processing

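The number of higher genes was 10 of 69 with each scaling, the offset, the mean over probe sets and with each array left out. Because the members had been selected on these same arrays, this was largely given in advance. The block and the level filter leave each log2 difference unchanged here, as does the mean over probe sets for a gene with 1 probe set. All 24 genes with a value per array kept their sign and moved by less than 1 SD in all 360 alternatives, a count that includes those that could not move. For scattered genes 1 SD is a wide tolerance: Zfp367 went from 0.66 to 0.28 without control replicate 2, Zfp87 from -1.50 to -0.88 with the offset and Nr4a1 from 2.40 to 3.11 without dKO replicate 1. The count of calls varied. Calls to the lower side fell from 21 to 10 with median centring, which moved the median difference of all probe sets from -0.07 to 0.06 and turned all calls from 447 higher and 565 lower to 607 and 322. Without the intensity trend 0 genes were called higher and 1 lower (limma, 60 calls over all probe sets). In that fit 9 and 55 had an unadjusted p under 0.05, as in the main fit, a count largely given by the selection. With each array left out in turn, calls ranged from 1 to 6 on the higher and from 6 to 27 on the lower side. Over all probe sets they ranged from 185 to 624 and from 158 to 793. With the replicate block 2 genes were called higher and 13 lower, beside 319 and 379 of all probe sets. The replicate numbers share no stated litter or batch, and deviations of equally numbered arrays correlated at -0.09 to 0.04, so they were not taken as pairs. Dim probe sets limit the Zfp differences, since no detection call was used here.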
